A study of Mus musculus with 10 samples.

Results

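Claudins and their partner proteins build the tight junction, the most apical contact between intestinal epithelial cells. The genes examined, 10 chosen by name, were the pore-forming claudins Cldn2 and Cldn15, the sealing claudins Cldn1, Cldn3, Cldn4 and Cldn8, the further claudins Cldn7 and Cldn23, the membrane protein Ocln (occludin) and the scaffold Tjp1 (ZO-1). They are 10 of the 19456 genes listed in at least 1 library, and 9 of the 10 had enough counts to be tested. Poly-A RNA of mouse intestinal tissue was sequenced in 10 libraries, all from the C57BL/6 strain. The groups were transgenic mice overexpressing ITGB6 (TG) given 2.5% dextran sulfate sodium (DSS) by mouth (2 libraries), wild-type mice (WT) given 2.5% DSS (2 libraries), untreated TG (3 libraries) and untreated WT (3 libraries). DSS is a sulfated polysaccharide that injures the intestinal lining, and the submitters used it to model intestinal fibrosis. The intestinal segment, the age and sex of the mice, the duration of DSS and the promoter driving the transgene are not given in the sources used here.

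Claudins are membrane proteins that polymerise into strands and set which solutes pass between epithelial cells. Pore-forming claudins leave channels for small cations and water, whereas sealing claudins narrow that route. Occludin stabilises the strands, and ZO-1 ties them to the actin cytoskeleton.

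Library depth was 15393859 to 18284704 expected counts. The transgene, listed separately as human ITGB6, was read at 2201 to 3913 CPM (counts scaled to effective library size) in TG libraries and at 0.117 to 1.13 CPM in WT libraries. Epithelial RNA was abundant, with Krt8, a keratin of simple epithelia, at 5432 to 8801 CPM, while the smooth muscle gene Myh11 was nearly absent at 0 to 0.308 CPM. Markers of surface colonocytes summed to 3679.7 to 11341 CPM and those of small intestine enterocytes to 134 to 430 CPM. The X-inactivation RNA Xist read 307 to 739 CPM in every DSS library and 0 to 0.417 CPM in every untreated library, and the Y-linked Kdm5d read 0 CPM in every DSS library and 26.6 to 44.2 CPM in every untreated library. DSS and sex therefore cannot be told apart in any comparison of DSS with untreated tissue. Untreated TG replicate 1 stood apart, with Ptprc, a leukocyte gene, at 8.94 CPM against a highest value of 79.5 CPM in its group. The labels do not say that each library is a separate mouse, so p-values measure only the spread between these libraries.

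The promoters of the pore-forming pair are shown because these genes moved in opposite directions in WT after DSS. Each is the 250 bases before the annotated start, 5′ to 3′ on the gene's strand, from RefSeq on GRCm38.p6. Cldn2 lies at chrX:139800558-139800807 on the plus strand, and Cldn15 at chr5:136967619-136967868 on the plus strand. Capitals mark matches to 7 searched motifs.
Cldn2: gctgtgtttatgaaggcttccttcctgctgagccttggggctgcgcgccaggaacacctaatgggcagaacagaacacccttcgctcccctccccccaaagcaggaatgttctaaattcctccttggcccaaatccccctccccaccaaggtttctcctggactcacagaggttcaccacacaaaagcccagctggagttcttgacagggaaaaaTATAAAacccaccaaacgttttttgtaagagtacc
Cldn15: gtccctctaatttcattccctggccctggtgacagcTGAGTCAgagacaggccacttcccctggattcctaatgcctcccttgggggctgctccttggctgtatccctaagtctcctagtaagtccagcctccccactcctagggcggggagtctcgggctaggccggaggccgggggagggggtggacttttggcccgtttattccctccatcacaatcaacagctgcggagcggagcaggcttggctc
The window of Cldn2 held a TATA match (TATAAA) that begins at position -35 relative to the start, and 12.4% of 32851 RefSeq windows of this length hold that motif on either strand. The window of Cldn15 held an AP-1 match (TGANTCA) that begins at position -214, a motif found in 6.75% of windows. GC content was 52.0% in the Cldn2 window and 60.8% in the Cldn15 window. The other motifs were searched on both strands too: CDX (TTTATNG, in 9.81% of windows), an HNF1 core (GTTAAT, 6.43%), an E-box (CACCTG, 17.2%), GRHL (AACNGGTT, 1.79%) and HNF4 (CAAAGTCCA, 0.384%). RefSeq held a window for 8 of the 10 genes. Among these, Cldn4 had AP-1 matches beginning at positions -240 and -158 and an E-box at -14, and no match in a window overlapped another. A match describes letters in a window and is not evidence of binding.

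Levels per length, in FPKM (fragments per kilobase scaled to library size), placed Cldn3 and Cldn7 far above the rest in all 4 groups. Cldn7, a claudin found along the basolateral membrane as well as at the junction, averaged 734 ± 62.3 FPKM in TG after DSS, 718 ± 58.0 in WT after DSS, 619 ± 45.3 in untreated TG and 566 ± 19.6 in untreated WT (SD, n = 2, 2, 3 and 3). Cldn3, a sealing claudin of the gut, averaged 678 ± 90.3, 541 ± 41.7, 617 ± 59.5 and 595 ± 32.6 FPKM in the same groups. Together they held 75.7 to 85.2% of the summed FPKM of the 8 claudins in each library. Cldn7 and Cldn3 did not separate from each other except in WT after DSS, where every Cldn7 value exceeded every Cldn3 value.

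**Figure D1:**
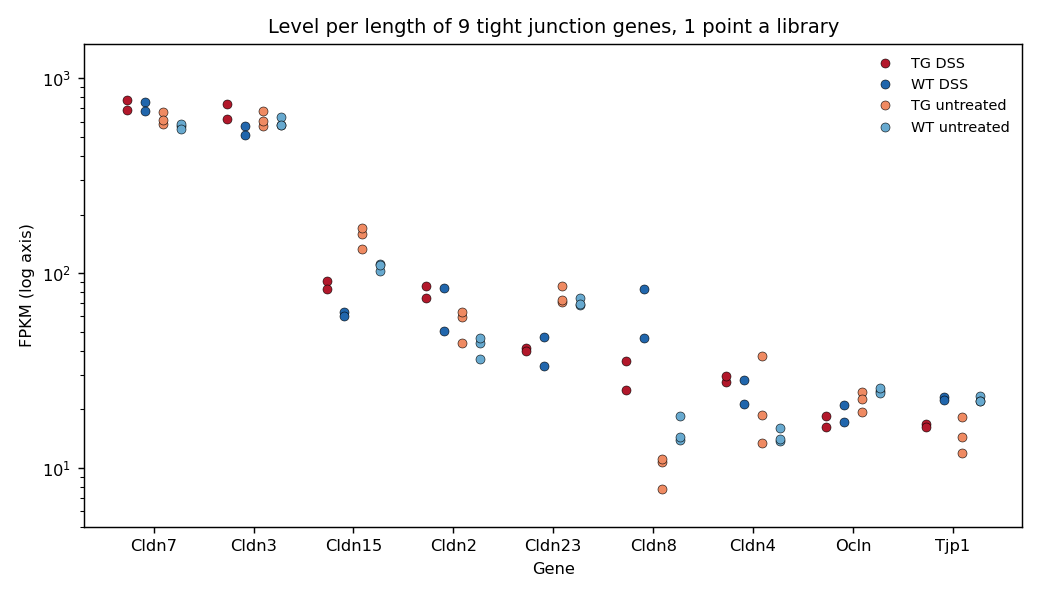
Level per length (FPKM, log axis) of 9 tight junction genes, with 1 point for each library and colours for the 4 groups. Cldn7 and Cldn3 lie above 500 FPKM in every library, Cldn15 leads the remaining genes in untreated tissue, and Cldn8 moves up the order after DSS.

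Below that pair the order differed with DSS. In untreated WT it ran Cldn15 (109 FPKM), Cldn23 (71.1), Cldn2 (42.2), Ocln (25.0), Tjp1 (22.7), Cldn8 (15.7) and Cldn4 (14.6), and each neighbour separated in every library except Cldn8 from Cldn4. In untreated TG the order was Cldn15 (154 FPKM), Cldn23 (76.7), Cldn2 (55.7), Cldn4 (23.4), Ocln (22.2), Tjp1 (14.8) and Cldn8 (9.86), with overlap only between Cldn4 and Ocln. In TG after DSS, Cldn15 (86.7 FPKM) and Cldn2 (80.3) overlapped, followed by Cldn23 (40.6), Cldn8 (30.3) and Cldn4 (28.7), the last 2 overlapping, and by Ocln (17.4) and Tjp1 (16.6), which also overlapped. In WT after DSS, Cldn2 (67.4 FPKM), Cldn8 (65.0) and Cldn15 (61.7) were not separated from their neighbours in that order, and Cldn23 (40.1), Cldn4 (24.9), Tjp1 (22.9) and Ocln (19.2) followed, with Cldn4 and Tjp1 overlapping. Cldn1, a sealing claudin best known from skin, was nearly undetected: it gathered 21 expected counts over the 10 libraries, its level did not exceed 0.07 FPKM, and no fold was computed for it.

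DSS was compared with untreated tissue, first within each genotype. Sex, as read from Xist and Kdm5d, differs in each of these comparisons and cannot be told apart from DSS for any gene. In TG, 3 of the 9 tested genes passed at an adjusted p under 0.05 (edgeR quasi-likelihood test, Benjamini-Hochberg adjustment over 14072 genes), 1 higher and 2 lower, where 5.48% of all tested genes passed, 3.33% higher and 2.15% lower. In WT, 4 of the 9 passed, 2 higher and 2 lower, against 19.8% of all tested genes, 10.2% higher and 9.62% lower. Cldn8 was higher, and Cldn15 and Cldn23 lower, in both genotypes. Cldn2 passed in WT, where it was higher, and did not pass in TG. Libraries did not overlap between DSS and untreated tissue for 6 of the 9 genes in TG, where 35.1% of all tested genes did not overlap, and for 7 of the 9 in WT, where 57.4% did not. The median log2 fold change of the 9 was 0.22 in TG and 0.07 in WT, beside 0.01 and 0 over all tested genes. The 2 genotypes' comparisons use different libraries, but all 10 libraries were in 1 fit that shared its estimate of the spread. The 2 results are therefore not independent. The difference between the 2 responses is given with the interaction.

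Cldn2, the channel for sodium and water whose gene is on the X chromosome, read 241 and 285 CPM in TG after DSS and 191, 192 and 139.9 CPM in untreated TG. In WT it read 161 and 253 CPM after DSS and 131, 108 and 137 CPM untreated. Every DSS library was above every untreated library of its genotype, but the 2 WT libraries after DSS lay far apart. The log2 fold change was 0.59 ± 0.21 in TG (SE; adjusted p = 0.134 by edgeR's quasi-likelihood test) and 0.73 ± 0.21 in WT, a 1.66-fold higher level (adjusted p = 0.0336). The WT call was lost on leaving out WT DSS replicate 2 (log2 0.36, adjusted p = 0.358) or any of untreated WT replicates 1, 2 and 3 (adjusted p = 0.0817, 0.118 and 0.0661), and with total count scaling (adjusted p = 0.0542). With the replicate number as a block it was also lost (adjusted p = 0.108), as it was in 3 limma fits on log2 FPKM (adjusted p = 0.0769 to 0.123). Of 437 tested X-linked genes, 11 were higher and 4 lower after DSS in TG, and 40 were higher and 24 lower in WT, with median log2 fold changes of 0.02 and 0.07. Over all tested genes, 3.33% were higher and 2.15% lower in TG, and 10.2% were higher and 9.62% lower in WT. DSS and sex cannot be told apart in the Cldn2 values.

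Cldn15, the other cation pore and a route for sodium back into the gut lumen, went the opposite way. It read 177 and 166 CPM in TG after DSS and 307, 314 and 256 CPM in untreated TG. In WT it read 121 and 110 CPM after DSS and 203, 185 and 196 CPM untreated. No DSS library reached the lowest untreated library of its genotype. Cldn15 fell by 0.77 ± 0.12 on the log2 scale in TG (SE; adjusted p = 0.0054, edgeR) and by 0.75 ± 0.12 in WT (adjusted p = 0.00326), 1.71-fold and 1.68-fold lower. The TG call was lost without TG DSS replicate 2 (adjusted p = 0.0876), while the WT call passed in all 20 alternatives.

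Within each library the balance of the pore-forming pair shifted. On FPKM, the ratio of Cldn2 to Cldn15 was 0.824 and 1.04 in TG after DSS and 0.376, 0.371 and 0.331 in untreated TG. It was 0.804 and 1.39 in WT after DSS and 0.39, 0.354 and 0.421 in untreated WT. Cldn2 thus made up 45.2 to 50.9% of the pair's summed FPKM in TG after DSS and 24.9 to 27.3% in untreated TG, and 44.6 to 58.2% in WT after DSS against 26.2 to 29.6% in untreated WT. The summed FPKM of the pair was 167 ± 1.71 in TG after DSS and 209.8 ± 29.2 in untreated TG, and 129 ± 21.7 in WT after DSS and 151 ± 10 in untreated WT (SD, n = 2, 3, 2 and 3). A ratio within a library does not depend on how libraries were scaled, and no p was computed for it because the genes were chosen with earlier results known.

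**Figure D2:**
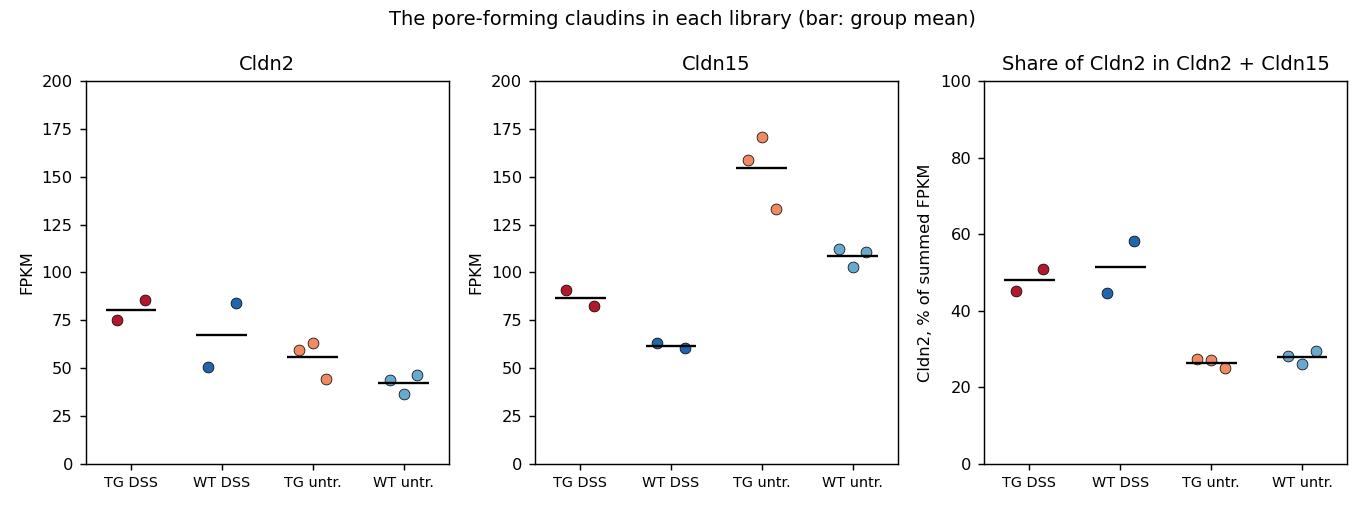
FPKM of Cldn2 and Cldn15, and the share of Cldn2 in their summed FPKM in percent, for each library (points) with the group mean (bars). The share is 44.6 to 58.2% in the 4 DSS libraries and 24.9 to 29.6% in the 6 untreated libraries.

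Cldn8, the sealing claudin that limits sodium leak in the distal colon, had the largest fold change of the 9 genes in both genotypes. It read 87.1 and 64.2 CPM in TG after DSS and 19.1, 24.9 and 27.1 CPM in untreated TG. In WT it read 203 and 108 CPM after DSS and 32.0, 32.9 and 41.9 CPM untreated. The lowest DSS library was above the highest untreated library in each genotype. The level was 3.2-fold higher in TG (log2 1.68 ± 0.26, SE; adjusted p = 0.00526, edgeR) and 4.36-fold higher in WT (log2 2.13 ± 0.26; adjusted p = 0.000713). The TG call was lost without TG DSS replicate 1 (adjusted p = 0.0598), and the WT call passed in all 20 alternatives, with log2 fold changes of 1.6 to 2.51. Cldn8 rose to 1.83 ± 0.587% of the claudins' summed FPKM in TG after DSS, against 0.64 ± 0.151% in untreated TG, and to 4.23 ± 1.4% in WT after DSS, against 1.11 ± 0.201% in untreated WT (SD, n = 2, 3, 2 and 3). Markers of the anal squamous epithelium were near 0, summing over 5 genes to 1.17 to 3.04 CPM in TG after DSS, 1.13 to 1.65 in untreated TG, 1.95 to 2.27 in WT after DSS and 1.25 to 1.99 in untreated WT. Only 2 of these markers could be tested. For DSS in WT 1 of the 2 was called higher (median log2 fold change 1.72), where 10.2% of all tested genes were, and in TG 0 were called (median 0.63). Their part in the Cldn8 values was not tested.

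Cldn3 did not pass in either genotype. It read 797 and 994 CPM in TG after DSS and 881, 695 and 769.7 CPM in untreated TG, and 732 and 621 CPM in WT after DSS and 692, 757 and 685 CPM in untreated WT. Groups overlapped in both genotypes, with log2 fold changes of 0.2 in TG (95% interval -0.12 to 0.52) and -0.07 in WT (-0.39 to 0.25). Cldn4, the sealing claudin whose gene lies 39280 bases from Cldn3 on chromosome 5, read 52.4 and 58.0 CPM in TG after DSS and 25.4, 67.8 and 35.1 CPM in untreated TG. In WT it read 40.1 and 50.2 CPM after DSS and 24.3, 27.9 and 24.4 CPM untreated. The WT groups did not overlap, whereas in TG the untreated libraries spanned both DSS values. Its log2 fold change was 0.37 in TG (adjusted p = 0.582, edgeR) and 0.82 in WT (adjusted p = 0.0997). It passed in WT without untreated TG replicate 1 or 2 (adjusted p = 0.0214 and 0.013) or with only the WT groups in the fit (adjusted p = 0.00948), and in TG without untreated TG replicate 2 (adjusted p = 0.0387).

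Cldn23, a less studied claudin, read 79.6 and 78.9 CPM in TG after DSS and 136, 156 and 138 CPM in untreated TG. In WT it read 89.0 and 59.7 CPM after DSS and 123, 132 and 122 CPM untreated. All 4 DSS libraries were below all 6 untreated libraries. It fell by 0.86 ± 0.16 on the log2 scale in TG (SE; adjusted p = 0.0128, edgeR) and by 0.76 ± 0.16 in WT (adjusted p = 0.0104). The TG call was lost without TG DSS replicate 1 or 2 (adjusted p = 0.101 and 0.13), and the WT call without WT DSS replicate 2 (log2 -0.5, adjusted p = 0.0651).

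Cldn7 read 902 and 1050.3 CPM in TG after DSS and 875, 724 and 791 CPM in untreated TG, and 980.3 and 830.2 CPM in WT after DSS and 691, 707 and 656 CPM in untreated WT. DSS libraries were above untreated libraries in both genotypes without overlap. The log2 fold change was 0.29 ± 0.13 in TG (SE; adjusted p = 0.236, edgeR) and 0.4 ± 0.13 in WT (adjusted p = 0.0506), and the WT value crossed the threshold in 7 of 10 other settings and without untreated TG replicate 1 or 2 (adjusted p = 0.0271 and 0.0465). Ocln read 61.8 and 55.7 CPM in TG after DSS and 64.1, 78.0 and 74.0 CPM in untreated TG, and 57.2 and 65.8 CPM in WT after DSS and 77.2, 75.2 and 78.2 CPM in untreated WT. DSS values of Ocln were below untreated values in each genotype, with log2 fold changes of -0.29 in TG (adjusted p = 0.208, edgeR) and -0.32 in WT (adjusted p = 0.0894). Without untreated TG replicate 1, Ocln passed in TG (adjusted p = 0.0454) and in WT (adjusted p = 0.0297), and in WT also with only the WT groups in the fit (adjusted p = 0.04). Tjp1 read 125 and 124 CPM in TG after DSS and 87.8, 101 and 133 CPM in untreated TG, and 171 and 155 CPM in WT after DSS and 162, 152 and 150.0 CPM in untreated WT. Its groups overlapped, with log2 fold changes of 0.22 in TG (95% interval -0.13 to 0.56) and 0.07 in WT (-0.27 to 0.42).

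**Figure D3:**
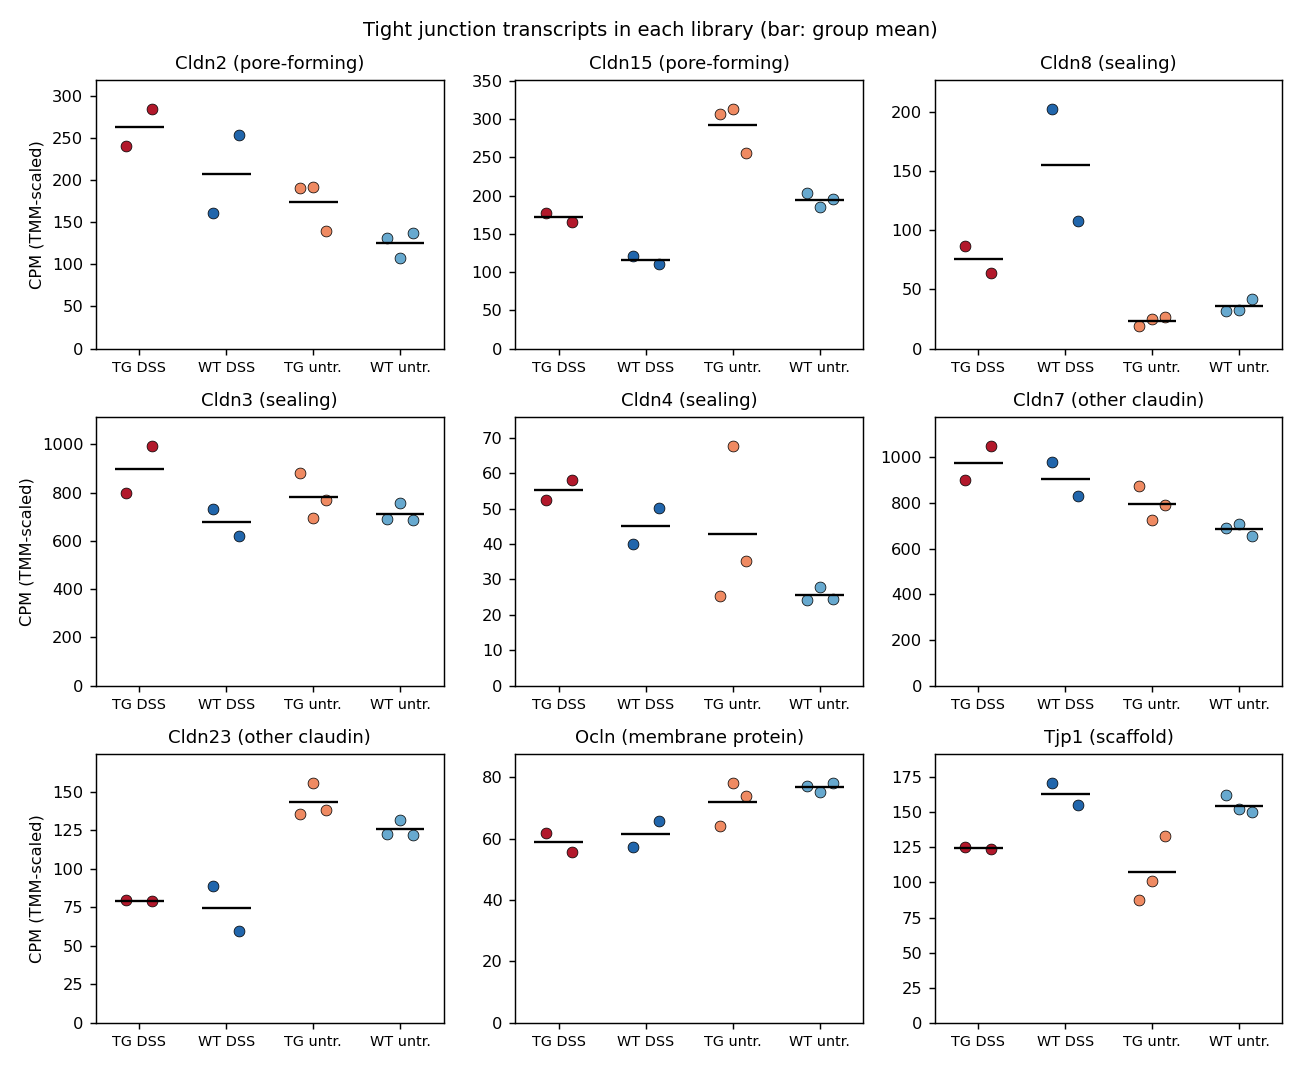
CPM after TMM scaling of the 9 tested genes in each library (points) with the group mean (bars), each axis starting at 0. Cldn8 is higher and Cldn15 and Cldn23 are lower in the DSS libraries of both genotypes, and Cldn15 is higher in TG than in WT with and without DSS.

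Markers of the epithelium as a whole did not pass in these comparisons, 0 of 7 in TG and 0 of 7 in WT, with sums of 16458 to 19104 CPM in TG after DSS, 17151 to 19769.7 in untreated TG, 14115 to 17679 in WT after DSS and 15781 to 17187 in untreated WT. Markers of epithelial subtypes did move. Over all tested genes, 3.33% were called higher and 2.15% lower for DSS in TG, and 10.2% higher and 9.62% lower in WT. Surface colonocyte markers were lower for 5 of 5 in WT, summing to 3679.7 to 6018 CPM after DSS and 8955 to 11341 untreated, among them Slc26a3, the chloride-bicarbonate exchanger (log2 -1.53 ± 0.29, SE). In TG 1 of the 5 was higher and 1 lower, with sums of 7659 to 9869.7 CPM after DSS and 5281 to 9090 untreated. Of 4 tested crypt base stem cell markers, 1 was lower in TG and 3 in WT, including the Wnt target Axin2 in both (log2 -1.46 ± 0.13 in TG and -1.39 ± 0.13 in WT). Their sums were 46.5 to 49.0 CPM in TG after DSS, 83.7 to 96.1 in untreated TG, 25.1 to 59.7 in WT after DSS and 77.9 to 93.8 in untreated WT. Leukocyte markers summed to 29.3 to 34.9 CPM in TG after DSS, 19.3 to 109.9 in untreated TG, 33.4 to 47.1 in WT after DSS and 79.6 to 144 in untreated WT, with 1 of 5 higher in TG and 1 higher and 1 lower in WT. The median log2 fold change of the 5 leukocyte markers was -0.83 in TG and -1.55 in WT. In bulk tissue, fewer cells of a type and less RNA per cell cannot be told apart, and the part of cell makeup in the claudin values was not tested.

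Untreated TG was compared with untreated WT to ask what the transgene changed before injury. Cldn15 alone passed, 1 of the 9 tested genes, where 3.7% of all tested genes passed, 2.26% higher and 1.44% lower. The per-library values given above placed all 3 TG libraries above all 3 WT libraries, with means of 292 ± 32.1 CPM in untreated TG and 195 ± 9.49 CPM in untreated WT (SD, n = 3 each). Cldn15 was 1.5-fold higher (log2 0.59 ± 0.11, SE; adjusted p = 0.0191, edgeR quasi-likelihood test). The call was lost without untreated WT replicate 1, 2 or 3 (adjusted p = 0.069, 0.103 and 0.0935), without untreated TG replicate 2 (adjusted p = 0.0673) and with the replicate number as a block (adjusted p = 0.0536), while the log2 fold change stayed between 0.5 and 0.67 in all 20 alternatives. Libraries did not overlap for 6 of the 9 genes, where 32% of all tested genes did not, and the median log2 fold change of the 9 was 0.19, beside -0.02 over all tested genes.

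A further 4 genes had an unadjusted p under 0.05 in untreated tissue but did not pass; 20.7% of all tested genes had such a p. Tjp1 averaged 107 ± 23.0 CPM in untreated TG and 155 ± 6.43 CPM in untreated WT, without overlap (log2 -0.53 ± 0.14, SE; adjusted p = 0.0696, edgeR). It passed without untreated TG replicate 3 (adjusted p = 0.0247), with total count scaling (adjusted p = 0.0377), in DESeq2 (adjusted p = 0.0168) and in 2 limma fits (adjusted p = 0.0367 and 0.0396). Cldn2 averaged 174 ± 30.0 CPM in untreated TG and 125 ± 15.1 CPM in untreated WT (log2 0.48 ± 0.19; adjusted p = 0.185), and Cldn8 averaged 23.7 ± 4.14 and 35.6 ± 5.46 CPM in these groups (log2 -0.59 ± 0.24; adjusted p = 0.203). Both were without overlap. Cldn4 averaged 42.8 ± 22.2 CPM in untreated TG and 25.5 ± 2.06 CPM in untreated WT (log2 0.74 ± 0.29; adjusted p = 0.19), and its spread came from the value of 67.8 CPM in TG replicate 2. Without TG replicate 2 its log2 fold change was 0.22 (adjusted p = 0.473), and without TG replicate 1 it was 1.01 (adjusted p = 0.0318), the only alternative in which it passed. Cldn3, Cldn7, Cldn23 and Ocln had log2 fold changes of 0.14, 0.22, 0.19 and -0.09.

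Some cell type markers were called between these groups as well, where 2.26% of all tested genes were higher and 1.44% lower. Of 6 goblet cell markers, 2 were higher in untreated TG, with sums of 26577 to 38186 CPM in untreated TG and 8669 to 22628 CPM in untreated WT. They were Spdef, a goblet cell transcription factor, and Agr2, a disulfide isomerase needed for mucin (both log2 1.34). Of 5 fibroblast markers, 2 collagens were higher, with sums of 28.4 to 91.4 CPM in untreated TG and 16.2 to 27.7 CPM in untreated WT. Car4, a carbonic anhydrase of surface colonocytes, was lower (log2 -0.78 ± 0.14, SE), and Krt18, a keratin, was higher (log2 0.54 ± 0.10), 1 of 5 and 1 of 7 in their lists. Their part in the Cldn15 value was not tested.

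After DSS, none of the 9 genes passed between TG and WT in edgeR's quasi-likelihood test, where 0.185% of all tested genes passed, and 4 of the 9 had an unadjusted p under 0.05. An unadjusted p under 0.05 was reached by 11.2% of all tested genes. DESeq2 called 2 of the 9, Cldn15 and Cldn8, and 1.83% of all tested genes. Cldn15 averaged 171 ± 7.83 CPM in TG after DSS and 116 ± 8.1 CPM in WT after DSS (SD, n = 2 each; log2 0.57 ± 0.13, SE; adjusted p = 0.149 in edgeR and 0.00868 in DESeq2). Cldn8 averaged 75.7 ± 16.2 CPM in TG after DSS and 155 ± 67.4 CPM in WT after DSS (log2 -1.04 ± 0.29; adjusted p = 0.211 in edgeR and 0.0321 in DESeq2). Without WT DSS replicate 1 the edgeR log2 fold change of Cldn8 was -0.51 (adjusted p = 0.391), and without WT DSS replicate 2 it was -1.42 (adjusted p = 0.0873). Both TG libraries lay on the same side of both WT libraries for each gene. Cldn3 (log2 0.4 ± 0.16) and Tjp1 (log2 -0.39 ± 0.17) also showed no overlap, with adjusted p of 0.369 and 0.436 in edgeR. Cldn2 overlapped, with a log2 fold change of 0.34 (95% interval -0.16 to 0.85). In all, 5 of the 9 genes did not overlap, where 43.2% of all tested genes did not, and the median log2 fold change was 0.11, beside -0.01 over all tested genes. Cldn4 was the fifth (log2 0.29), and Cldn7, Cldn23 and Ocln had log2 fold changes of 0.11, 0.09 and -0.07.

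The interaction asked whether the response to DSS differed between TG and WT. DSS and sex cannot be told apart in this comparison either, because Xist and Kdm5d split all DSS libraries from all untreated libraries. None of the 9 genes passed in edgeR, none had an unadjusted p under 0.05, and DESeq2 called none of them, while 0.846% of all tested genes passed in edgeR. The difference of the responses, TG minus WT, was -0.02 for Cldn15 on the log2 scale (95% interval -0.39 to 0.35), -0.14 for Cldn2 (-0.79 to 0.52), -0.1 for Cldn23 (-0.58 to 0.39) and -0.45 for Cldn8 (-1.28 to 0.38). It was -0.45 for Cldn4 (-1.47 to 0.56), the widest interval of the 9, and 0.27 for Cldn3 (-0.19 to 0.72). The intervals of Cldn8 and Cldn4 include differences of more than 1 log2 unit, so similar responses were not shown. The median of the 9 was -0.1, beside 0 over all tested genes.

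**Figure D4:**
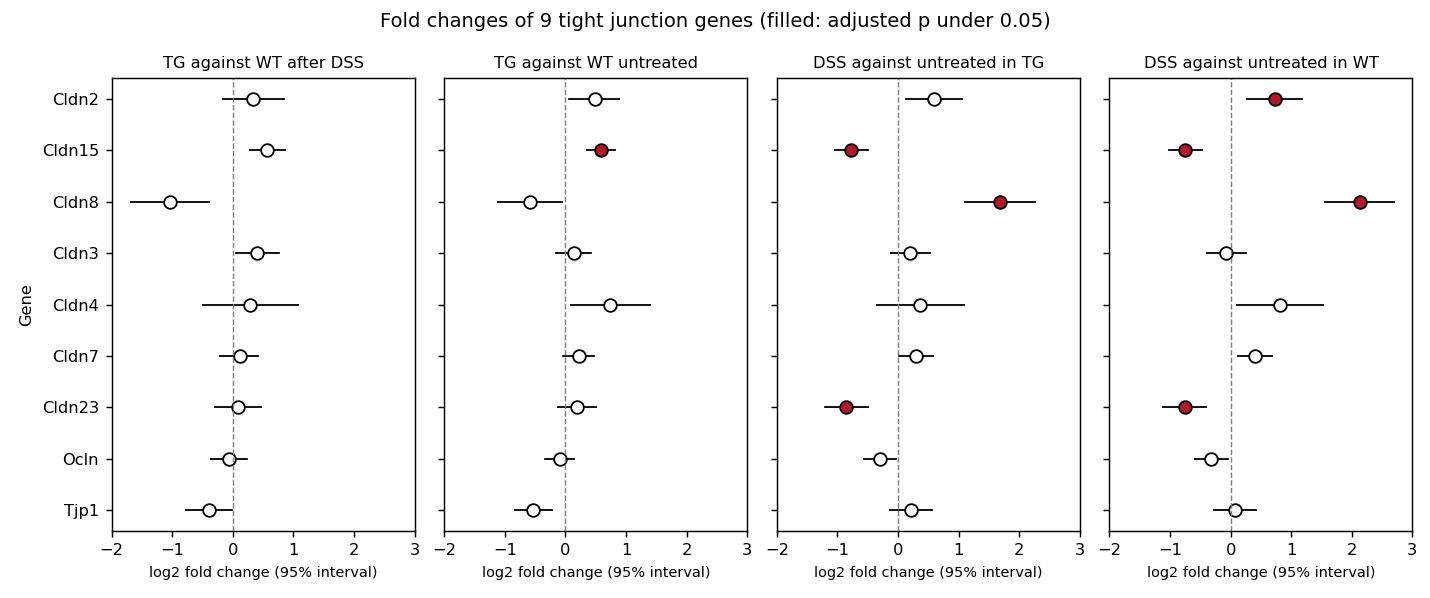
log2 fold change (x axis) with its 95% interval for 9 genes (rows) in 4 comparisons (panels), filled where the adjusted p was under 0.05. Filled points are Cldn15 in untreated TG against WT, Cldn8, Cldn15 and Cldn23 for DSS in TG, and those 3 genes and Cldn2 for DSS in WT.

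Pore-forming and sealing claudins were also set against each other within each library, as the mean log2(FPKM + 0.1) of Cldn2 and Cldn15 minus that of Cldn1, Cldn3, Cldn4 and Cldn8. The difference was 2.28 ± 0.0294 in TG after DSS, 1.86 ± 0.272 in WT after DSS, 3.0 ± 0.35 in untreated TG and 2.51 ± 0.135 in untreated WT (SD, n = 2, 2, 3 and 3). It was 0.72 lower after DSS in TG and 0.65 lower after DSS in WT, and it was 0.43 higher in TG than in WT after DSS and 0.5 higher in untreated tissue. The differences between DSS and untreated tissue depended on the pore claudin used. With Cldn15 alone the DSS difference was -1.4 in TG and -1.37 in WT, and with Cldn2 alone it was -0.04 in TG and 0.07 in WT. The sealing side moved as well: among its tested claudins Cldn8 rose most after DSS (log2 1.68 in TG and 2.13 in WT). No alternative left Cldn8 out, so a lower difference is not by itself a loss of pore-forming claudins. Cldn1 is at or near 0, so its term is set mainly by the added 0.1, and without it the DSS difference was -0.86 in TG and -0.96 in WT. The difference between TG and WT fell to 0.23 after DSS without WT DSS replicate 1 and to 0.3 in untreated tissue without TG replicate 1. In WT after DSS, Cldn2 and Cldn15 passed in opposite directions.

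The rest of the junction was read from lists chosen with earlier results known. Over all tested genes, the share that passed was lowest between TG and WT after DSS (0.185%) and highest for DSS in WT (19.8%). The share with an unadjusted p under 0.05 was 11.2% and 33.6% in these comparisons. Of 21 other claudins, 13 were listed, 4 were tested and none passed in any of the 5 comparisons in edgeR, with 1 at an unadjusted p under 0.05 in every comparison except that of TG with WT after DSS, which had 0. Cldn12, a claudin linked to calcium passage, was the most abundant of them at 65.3 to 78.7 CPM. Cldn5, the endothelial claudin, read 0 CPM in all 4 DSS libraries and at most 0.235 CPM in untreated libraries. Of 10 tested junction membrane proteins other than claudins and occludin, none passed in any comparison, with 1 at an unadjusted p under 0.05 after DSS between TG and WT and 0 in the other comparisons. Among these, F11r (JAM-A), an adhesion molecule of the junction, averaged 295 ± 0.65 CPM in TG after DSS, 290.1 ± 45.9 in WT after DSS, 272 ± 29.2 in untreated TG and 269 ± 11.1 in untreated WT (SD, n = 2, 2, 3 and 3).

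Among the scaffolds the share called was near that of all tested genes after DSS. Of 24 tested, Cgnl1 (paracingulin), a cytoplasmic plaque protein of the junction, was the only 1 that passed for DSS in TG, at 58.3 ± 5.11 CPM after DSS and 35.0 ± 2.83 CPM untreated (SD; log2 0.74 ± 0.12, SE; adjusted p = 0.00644, edgeR). The share of all tested genes called there was 5.48%, and 8 of the 24 had an unadjusted p under 0.05, where 20.1% of all tested genes did. For DSS in WT, 2 of the 24 were higher and 2 lower, where 19.8% of all tested genes were called. Cgnl1 averaged 68.4 ± 2.03 CPM after DSS and 40.1 ± 3.27 CPM untreated (log2 0.77). The polarity kinase Prkcz (log2 -0.62) and Arhgef2 (log2 -0.48), a guanine nucleotide exchange factor bound by cingulin, were lower. In untreated tissue 8 of the 24 again had an unadjusted p under 0.05, where 20.7% of all tested genes did. The polarity protein Pard6b alone passed, where 3.7% of all tested genes did. It was higher in TG, at 82.0 ± 9.02 CPM in untreated TG and 47.0 ± 3.87 CPM in untreated WT (log2 0.8 ± 0.14; adjusted p = 0.0166). List medians were within 0.11 of 0 on the log2 scale in all 5 comparisons.

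Adherens junction and desmosome genes, 18 tested, showed 1 call in untreated tissue, where 3.7% of all tested genes were called. It was Nectin1, listed under its older symbol Pvrl1 (log2 0.71 ± 0.16, SE; adjusted p = 0.0413, edgeR). For DSS in WT 2 of the 18 were higher and 1 lower, where 19.8% of all tested genes were called, so the list did not exceed that share. The plakophilins Pkp4 (log2 0.71) and Pkp2 (log2 0.46), which are desmosome and adherens plaque proteins, were higher, and envoplakin, Evpl (log2 -0.72), was lower. None passed for DSS in TG, where 5.48% of all tested genes did. There 3 of the 18 had an unadjusted p under 0.05, as did 20.1% of all tested genes. The plot of junction lists shows most of these genes near 0.

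**Figure D5:**
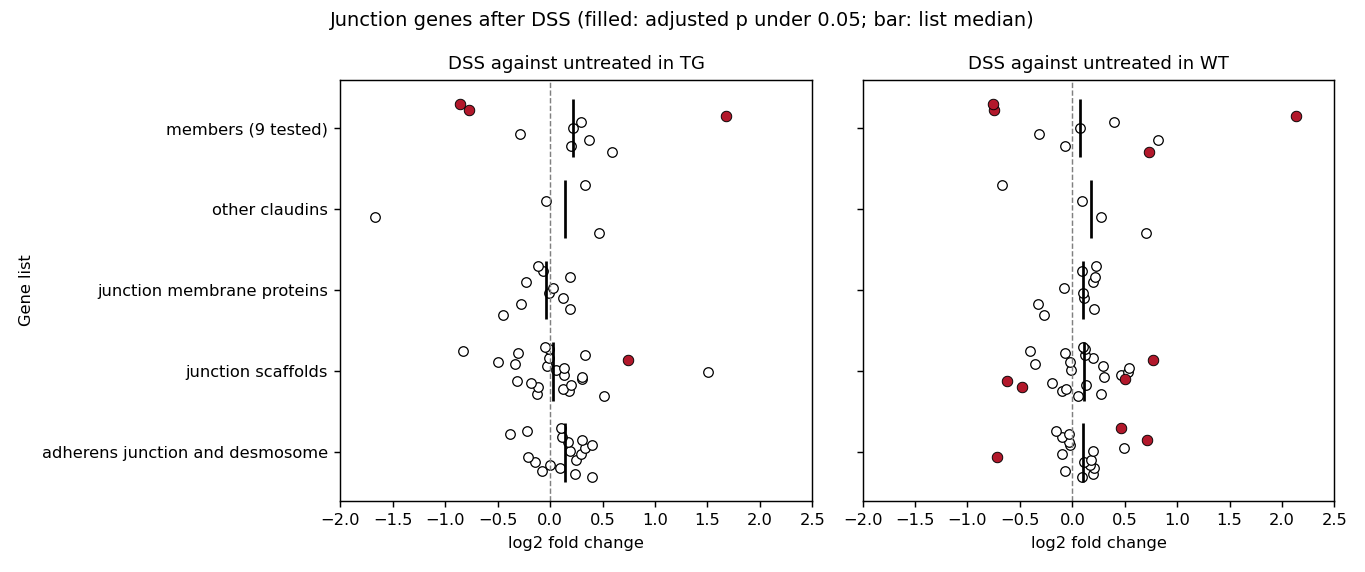
log2 fold change of DSS against untreated tissue (x axis) for the 9 tested genes and 4 lists of other junction genes (rows) in TG and WT, with list medians as bars and genes with adjusted p under 0.05 filled. Cldn8, at 1.68 in TG and 2.13 in WT, has the highest value in each panel.

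Of 17 tested regulators linked to claudin genes, 1 was lower and 0 higher for DSS in TG, where 5.48% of all tested genes passed. In WT 3 were lower and 1 higher, where 19.8% passed, so both counts were near the share of all genes. Grhl2, an epithelial transcription factor that maintains junction genes, was lower after DSS in both genotypes. It averaged 44.1 ± 2.05 CPM in TG after DSS and 61.0 ± 4.98 CPM in untreated TG, and 45.5 ± 2.45 CPM in WT after DSS and 65.3 ± 1.26 CPM in untreated WT (SD; log2 -0.47 in TG, adjusted p = 0.0352, and -0.52 in WT, adjusted p = 0.0107, edgeR). In WT the vitamin D receptor Vdr was also lower, at 374 ± 21.9 CPM after DSS and 712 ± 32.9 CPM untreated (log2 -0.93 ± 0.17, SE), as was the mineralocorticoid receptor Nr3c2 (log2 -0.49). Elf3, an epithelial ETS factor, was higher in WT after DSS (log2 0.64). Aldosterone, acting through Nr3c2, is known from rat distal colon to raise Cldn8 together with the sodium channel. Of 11 sodium channel and aldosterone response genes, 4 were lower and 0 higher for DSS in WT, where 9.62% of all tested genes were lower and 10.2% higher. Among the 4 were Scnn1g, the channel's gamma subunit (log2 -1.97 ± 0.44), Sgk1, an aldosterone-induced kinase (log2 -1.41 ± 0.27), and Nr3c2. In TG none of the 11 passed for DSS in edgeR, and 2 had an unadjusted p under 0.05, where 20.1% of all tested genes did. The 3 largest values in TG, singled out after they were seen, were positive: log2 0.87 for Scnn1b, the channel's beta subunit (adjusted p = 0.0765), 0.84 for Scnn1g (adjusted p = 0.291) and 0.83 for Hsd11b2 (adjusted p = 0.0792), the enzyme that shields Nr3c2 from glucocorticoids. The median log2 fold change of the 11 was 0.09 in TG and -0.39 in WT. None of the 11 passed in the interaction, where 6 of the 11 had an unadjusted p under 0.05, beside 12.1% of all tested genes. Between TG and WT after DSS none passed either, and 7 of the 11 had such a p, beside 11.2% of all tested genes. Their median log2 fold change there was 0.4, beside -0.01 over all tested genes, and that of Cldn8, which did not pass, was -1.04. A link between these genes and Cldn8 was not tested.

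For each claudin called in 2 or more comparisons, other genes were ranked by how alike their profile over the 10 libraries was. The measure was the root mean square difference of log2 CPM, each gene centred on its own mean. Only the 2137 genes with an SD of log2 CPM of at least 0.5 over the libraries were compared. Cldn23 itself lay below that cutoff (SD 0.45), so genes with a spread as small as its own could not be named. Nearest to Cldn15 were Lbh (0.168), Pou2f3 (0.192) and Slc2a10 (0.193). Nearest to Cldn23 were Adcy5 (0.121), Spry1 (0.152) and Klf11 (0.165). Nearest to Cldn8 were Hdc (0.301), Clec4e (0.323) and Dio3os (0.339). The measure grows with a gene's own spread, and the SD of log2 CPM over the libraries was 0.5 for Cldn15, 0.45 for Cldn23 and 1.08 for Cldn8, so the 3 sets are not ranked against each other. These differences are descriptions over the 10 libraries, which share the groups compared.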

How the data were processed

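Each library came as 1 table that gives, per the file headers, the expected count of every gene, its length in bases and its FPKM as deposited by the authors. Per the submitters' processing notes HISAT2 2.0.4, Bowtie2 2.2.5, RSEM 1.2.12 and mm10 were used, with no roles stated. The 10 genes and all lists were chosen with earlier results of these data known. Genes absent from a table were set to 0. Expected counts were rounded, filtered (filterByExpr, count minimum 10, total minimum 15, leaving 14072 genes), TMM-scaled and fitted with 1 mean per group to the 10 libraries together with edgeR 4.0.16 (R 4.3.3), leaving 6 residual degrees of freedom at a biological coefficient of variation of 0.171. A gene passed, or was called, at a Benjamini-Hochberg adjusted p under 0.05. Standard errors are the log2 fold change over the root of F. CPM use TMM-scaled library sizes, and FPKM are as deposited. The fit was tested on simulated data. DESeq2 1.42.0 and limma 3.58.1 (on log2 FPKM) were alternatives, beside other scalings, filters and leaving out each library. The 8 same-group pairs differed by more than counting noise (9.99 to 65.2 chi-square units per gene). Depth was 15393859 to 18284704 expected counts, so genes such as Cldn1, with 21 counts, have wide counting error. Listed genes other than the 10 were named with fold changes where they passed, averaged at least 1 CPM and did not overlap between groups, up to 3 rises and 3 falls per list and comparison. Further values, of Scnn1b, Hsd11b2, F11r, Cldn12, Cldn5 and the genes that check tissue, sex and transgene, were chosen after values were seen. Some genes that met this rule are not reported here.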

Additional observations from a re-analysis of the deposited data

How the results depend on the processing

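Of the 9 tested genes, 1 was called in untreated TG against WT, 2 with total count scaling, DESeq2 and limma with either pseudocount on filtered genes, and 0 to 2 on leaving out 1 library. With the replicate number as a block it was 0. The labels do not say that the numbers pair the samples, and deviations of same-numbered libraries correlated at -0.29 to 0.206. In a group of 2 libraries the deviations mirror each other, so these correlations cannot decide whether the numbers mark pairs. After DSS, TG against WT went to 2 calls in DESeq2. For DSS in WT, 4 calls became 7 with only the groups compared and 2 to 7 on leaving out 1 library. For DSS in TG, 3 became 1 to 4. Sign changes occurred only on leaving out libraries, in genes not called: Cldn3 for DSS in WT (-0.19 to 0.04), Cldn23 (-0.17 to 0.41), Cldn7 (-0.01 to 0.23) and Ocln (-0.16 to 0.04) between TG and WT after DSS, and in the interaction Cldn15 (-0.11 to 0.05), Cldn2 (-0.43 to 0.22), Cldn23 (-0.36 to 0.22), Cldn4 (-0.72 to 0.06), Cldn7 (-0.23 to 0.01), Cldn8 (-0.84 to 0.08) and Ocln (-0.07 to 0.13). The pore-minus-sealing difference moved after DSS between TG and WT to 0.15 with a pseudocount of 0.01 and 0.16 with summed FPKM, and fell to 0.23 without WT DSS replicate 1; in untreated tissue it fell to 0.3 without TG replicate 1. For DSS in WT it moved to -0.37 with that pseudocount, -0.38 with Cldn7 and Cldn23 added, 0.07 with Cldn2 alone, -1.37 with Cldn15 alone, -0.24 with summed FPKM and -0.96 without Cldn1, an alternative chosen after seeing the data. For DSS in TG it moved to -0.42 with Cldn7 and Cldn23 added, -0.04 with Cldn2 alone and -1.4 with Cldn15 alone. Its interaction moved to -0.5 with a pseudocount of 0.01. The cause was not tested. Over all genes, calls were 520 in untreated TG against WT (58 to 1041 over the alternatives), 26 after DSS (4 to 258), 2788 for DSS in WT (970 to 4112), 771 for DSS in TG (173 to 1677) and 119 for the interaction (24 to 430). With 2 or 3 libraries a group, a gene that did not pass was not shown to be unchanged.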
